A study of Homo sapiens with 8 samples.

Results

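Fatty acid synthesis, elongation and desaturation were examined in CAKI1 cells through 10 genes, which were read by their symbols from the 16782 genes of the deposited table. These were ACLY, ACACA and FASN, which supply the precursors and build the chain, the elongases ELOVL1, ELOVL5 and ELOVL6, and the desaturases SCD, FADS1, FADS2 and FADS3. CAKI1 is an established human renal carcinoma cell line. All cells were deprived of serum for 24 h. In 4 samples they were then stimulated for 24 h with 5 µg/mL hLcn-2, the iron-loaded holo-form of the recombinant human protein lipocalin-2, and 4 unstimulated samples served as controls. In each group the samples were numbered 1 to 4. The model is 1 cell line in culture, apo-Lcn-2 was not part of these 8 samples, and the labels do not say whether the samples were separate cultures, so that p-values measure the spread between these samples, which may be technical.

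Cells make saturated fatty acids in the cytosol. ATP citrate lyase (ACLY) splits citrate into acetyl-CoA, acetyl-CoA carboxylase (ACACA) turns it into malonyl-CoA, and fatty acid synthase (FASN) joins these units to palmitate. In the endoplasmic reticulum, elongases add further carbons and desaturases place double bonds. Stearoyl-CoA desaturase (SCD) makes monounsaturated fatty acids such as oleate, whereas FADS2 and FADS1 carry out the delta-6 and delta-5 steps towards polyunsaturated fatty acids. Many genes of this pathway are known targets of the SREBP transcription factors. Monounsaturated and polyunsaturated chains differ in how easily they are peroxidized, which links desaturases to ferroptosis, the iron-dependent cell death with which the study is concerned.

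The levels are normalized counts, reads of a gene scaled by the authors to a common library size (CPM). The libraries tag the 3′ end of transcripts, about once per molecule, so that the values were not divided by transcript length and were compared between genes as they stand. Libraries held from 1501563 to 13953090 reads, at which 3 reads of a gene correspond to between 0.211 and 1.98 CPM. All 10 genes passed the filter of at least 1 CPM in at least 2 samples, which left 15593 genes for testing, and the lowest number of reads behind any of their values was 37, for ELOVL1. Of 10 renal and epithelial markers listed for the line, 8 were in the table. Their summed level was 3482, 3832, 2802 and 3456 CPM in controls 1 to 4. With hLcn-2 it was 3748, 4063, 3128 and 3770 CPM, higher in each pair. Single markers did not all follow the sum, as 4 of the 8 had a higher mean log2 level with hLcn-2. KRT18 averaged 96.9 CPM in controls and 92.6 CPM with hLcn-2, MET 956 and 941 CPM, and KRT8 29.5 and 32.8 CPM. VIM, the gene of vimentin, averaged 1664 and 1874 CPM and CDH2, N-cadherin, 416 and 509 CPM, both higher in 4 of 4 pairs and short of the threshold (limma with the block, adjusted p = 0.348 and 0.163). PAX8, a factor of the renal lineage, averaged 226 CPM in controls and 223 with hLcn-2. CUBN, the proximal tubule receptor cubilin, averaged 1.87 and 0.648 CPM from 0 to 17 reads per sample (limma with the block, adjusted p = 0.282). With so few reads no difference can be read from CUBN. Of 12 markers of blood, vessel, podocyte, other tubule, liver and fat cells, ALB and PLIN1 were in the table, the other 10 were not analysed here, and ALB and PLIN1 together reached between 0.675 and 3.46 CPM. In bulk RNA, fewer cells of a type and less RNA per cell cannot be told apart.

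Upstream sequences are shown for SCD, FADS1 and ELOVL5 because these were higher in each of the 4 same-numbered pairs and have a RefSeq start site at the start of their reference transcript. Each is the 250 bases before that start on the strand of the gene (RefSeq, GRCh38.p14), with matches to CCAAT, to the GC box GGGCGG and to the E-box CACGTG on either strand in capitals. The windows are chr10:100346983-100347232 on the plus strand for SCD, chr11:61817004-61817253 on the minus strand for FADS1 and chr6:53348951-53349200 on the minus strand for ELOVL5.
SCD: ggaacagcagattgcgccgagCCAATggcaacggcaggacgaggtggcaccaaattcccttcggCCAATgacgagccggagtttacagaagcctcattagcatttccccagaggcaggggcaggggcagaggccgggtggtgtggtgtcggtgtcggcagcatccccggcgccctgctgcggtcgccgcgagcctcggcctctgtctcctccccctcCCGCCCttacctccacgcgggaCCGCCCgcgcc
FADS1: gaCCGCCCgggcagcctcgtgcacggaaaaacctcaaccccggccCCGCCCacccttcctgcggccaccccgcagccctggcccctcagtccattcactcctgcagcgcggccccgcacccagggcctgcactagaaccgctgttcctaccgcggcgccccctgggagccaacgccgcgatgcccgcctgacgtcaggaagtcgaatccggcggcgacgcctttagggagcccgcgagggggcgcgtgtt
ELOVL5: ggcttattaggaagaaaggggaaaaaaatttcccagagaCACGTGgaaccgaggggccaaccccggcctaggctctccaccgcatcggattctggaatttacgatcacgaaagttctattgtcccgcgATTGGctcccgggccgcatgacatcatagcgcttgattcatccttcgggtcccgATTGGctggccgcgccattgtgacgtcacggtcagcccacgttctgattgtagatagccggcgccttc

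SCD has CCAAT starting 229 and 186 bases before its start and a GC box on the opposite strand 33 and 11 bases before it. FADS1 has 2 GC boxes on the opposite strand, 248 and 205 bases before its start, and no CCAAT. ELOVL5 has CCAAT on the opposite strand 122 and 68 bases before its start and an E-box at 211. Windows of this length were found for 9 of the 10 genes, 13 windows in all, since ACACA, ACLY and FADS2 have more than 1 start. CCAAT was in 8 and GGGCGG in 10 of these 13 windows, compared with 32.0% and 42.6% of 35116 windows of all genes. The windows of ACLY overlap one another, as do those of FADS2, so that the 13 are not independent. Counted by gene, CCAAT was in 6 and GGGCGG in 8 of the 9, in at least 1 window each. ACACA held CCAAT only at starts other than that of its reference transcript. The E-box was in 1 of the 13, against 6.35%. None of the 13 held the sterol response element TCACNCCAC (0.883% of all windows), the ATF4 motif TGATGNAA (3.14%) or the antioxidant response motif TGACNNNGC (10.9%), where either strand was searched and motifs may overlap one another. This says only that these letters are not in these windows. The 2 windows of FADS2 end at starts that lie 11896 and 12097 bases upstream of the start of its reference transcript, 599 and 800 bases from the start of FADS1 on the opposite strand, and are not shown for that reason.

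SCD and FADS2, which encode the delta-9 and the delta-6 desaturase, were higher in hLcn-2-stimulated cells, by 1.42-fold and 1.41-fold of the mean level. Without regard to the replicate number, 0 of the 10 genes passed an adjusted p-value of 0.05 (limma), and neither did any of the 15593 genes tested (0% called). Of the 10 genes 1, FADS2, had an unadjusted p-value under 0.05, as had 355 of the 15593 genes tested. With the replicate number as a block in the model, SCD and FADS2 passed the threshold as 2 of 10 genes, where 0.218% of all genes tested were called as higher. The study had already listed SCD and FADS2 as differentially expressed, and the 10 genes were chosen with earlier results of these data known. The count of 2 of 10 is therefore a description. Given whole reads and the block, the quasi-likelihood test of edgeR called SCD and FADS2 too, against 1.12% of all genes called as higher. Without the block it called 0 of the 10 genes, with 2 at an unadjusted p-value under 0.05, against 324 of the 15593 genes tested. The mean log2 level was higher with hLcn-2 for 8 of the 10 genes, against 50.2% of all genes tested, and lower for ACACA and FADS3. In each of the 4 same-numbered pairs SCD, FADS1, FADS2 and ELOVL5 were higher, 4 of 10 genes against 9.93% of all genes tested, and 0 of 10 were lower in each pair, against 10.9%.

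**Figure D1:**
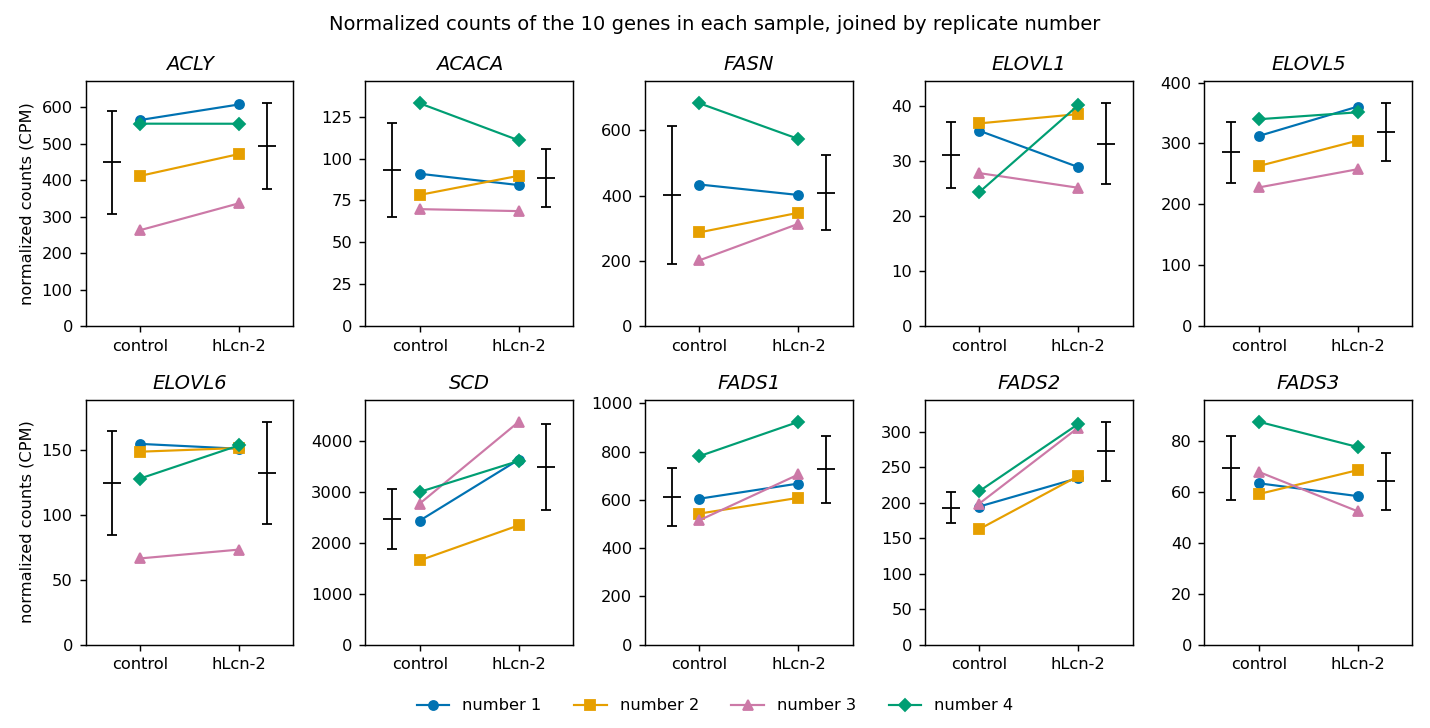
Normalized counts (CPM, linear axes from 0) of the 10 genes in the 4 control and the 4 hLcn-2 samples, with lines joining samples of the same number and black bars giving the mean and SD of each group (n = 4). SCD, FADS1, FADS2 and ELOVL5 are higher with hLcn-2 along all 4 lines, and for FADS2 alone the groups do not overlap.

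The desaturases SCD and FADS2 had the largest log2 fold changes of the 10 genes. SCD (ENSG00000099194, chromosome 10, 100347233 to 100364826, plus strand, 6 exons, GRCh38) was the most abundant of the 10 genes and ranked 13 among all genes by its mean level. Its level was 2436, 1654, 2771 and 3001 CPM in controls 1 to 4 and 3635, 2344, 4379 and 3610 CPM in hLcn-2 samples 1 to 4. Sample 2 was the lowest of both groups, and because of it the groups overlapped although every hLcn-2 sample was above its own control. The means were 2465 ± 588 and 3492 ± 845 CPM (SD, n = 4), and SCD differed by 0.50 on the log2 scale (standard error 0.23, 95% interval -0.00 to 1.01). The adjusted p-value in limma was 0.9999 without the block and 0.0317 with it, where the standard error was 0.083 and the interval 0.32 to 0.68. The log2 difference was 0.58, 0.50, 0.66 and 0.27 in pairs 1 to 4.

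FADS2 (ENSG00000134824, chromosome 11, 61792980 to 61867354, plus strand) had 194, 163, 198 and 216 CPM in controls 1 to 4 and 235, 237, 306 and 311 CPM in hLcn-2 samples 1 to 4. The highest control was below the lowest hLcn-2 sample, which held for 1 of the 10 genes and for 0.891% of all genes tested. The means were 193 ± 22.3 and 272 ± 41.8 CPM (SD, n = 4), and the log2 fold change was 0.49 (standard error 0.14, 95% interval 0.17 to 0.80). In limma its adjusted p-value was 0.9999 without the block and 0.0317 with it (standard error 0.080). The two-sided exact permutation test of this single gene gave p = 0.0286, the smallest value that 4 samples against 4 allow, while for SCD it gave 0.114. Across the 4 pairs the log2 difference of FADS2 was 0.27, 0.54, 0.62 and 0.52.

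The calls of both genes rested on the block and on the pairs. Leaving out pairs 1, 2, 3 and 4 in turn gave adjusted p-values in limma with the block of 0.104, 0.201, 0.176 and 0.00670 for SCD, and of 0.0259, 0.201, 0.154 and 0.0425 for FADS2. With the block but no intensity trend both had an adjusted p-value of 0.443, whereas edgeR with the block gave 0.00222 for SCD and 0.00557 for FADS2.

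FADS1 (ENSG00000149485, chromosome 11, 61799627 to 61829318, minus strand), the delta-5 desaturase, lies across from FADS2 on the opposite strand, and its last exon overlaps no exon of FADS2 or of another gene. Its level was 604, 543, 515 and 781 CPM in controls 1 to 4 and 667, 608, 705 and 923 CPM with hLcn-2. Sample 4 was the highest of both groups, and the groups overlapped. The means were 611 ± 119 and 726 ± 137 CPM (SD, n = 4), the log2 difference 0.25 (standard error 0.17), with pair differences between 0.14 and 0.45. FADS1 did not pass the threshold in limma with the block (adjusted p = 0.203) or in edgeR with the block (adjusted p = 0.108). FADS3 (ENSG00000221968), the neighbour of FADS2 on chromosome 11, had 63.4, 59.2, 67.9 and 87.6 CPM in controls and 58.3, 68.6, 52.3 and 77.6 CPM with hLcn-2. It was lower in 3 of 4 pairs. Its mean with hLcn-2 lay within the range of the controls, while hLcn-2 samples 1 and 3 lay below the lowest control. The log2 fold change was -0.11 (limma with the block, adjusted p = 0.721) and turned to 0.0029 without control 4.

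**Figure D2:**
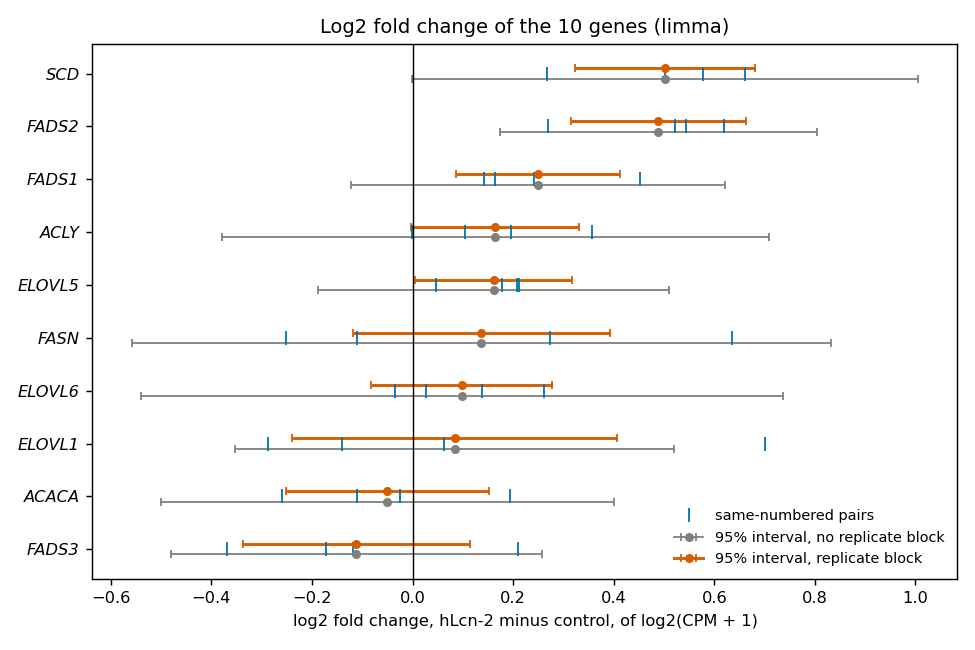
Log2 fold changes of the 10 genes (points, hLcn-2 minus control, on log2 of CPM + 1) with 95% intervals from limma without the replicate block in grey and with it in orange, and the differences of the 4 same-numbered pairs as blue ticks. With the block the intervals of SCD, FADS2, FADS1 and ELOVL5 lie above 0, and of these SCD and FADS2 passed the adjusted threshold. In that fit 1900 of the 15593 genes tested had an unadjusted p-value under 0.05, in either direction.

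Among the elongases, ELOVL5, which lengthens polyunsaturated chains between the steps of FADS2 and FADS1, was 312, 263, 228 and 340 CPM in controls 1 to 4 and 361, 305, 258 and 351 CPM with hLcn-2. It was higher in each pair, by 0.21, 0.21, 0.18 and 0.047 on the log2 scale, while the groups overlapped widely (286 ± 50.0 and 319 ± 47.4 CPM, SD, n = 4). The log2 fold change of 0.16 (standard error 0.16) did not pass the threshold (limma with the block, adjusted p = 0.395). ELOVL6, which extends palmitate to stearate, the substrate of SCD, had 154, 148, 66.3 and 128 CPM in controls and 151, 151, 73.1 and 153 CPM with hLcn-2. The samples numbered 3 were well below the others in both groups, and the log2 fold change was 0.098 (limma with the block, adjusted p = 0.690), or -0.18 without control 3. ELOVL1, an elongase of very long saturated and monounsaturated chains, was the least abundant of the 10 genes, with 24.4 to 36.9 CPM in controls and 25.2 to 40.2 CPM with hLcn-2 (log2 fold change 0.084, limma with the block, adjusted p = 0.866). It was higher in 2 of 4 pairs and changed sign when either sample 4 was left out (-0.024 without control 4 and -0.014 without hLcn-2 sample 4).

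None of the 3 genes of precursor supply and chain synthesis passed the threshold. FASN ranged from 201 to 683 CPM among the controls alone, a 3.39-fold range, with 434, 287, 201 and 683 CPM in controls 1 to 4 against 402, 347, 314 and 573 CPM with hLcn-2. It was higher in pairs 2 and 3 and lower in pairs 1 and 4, and the means of 401 ± 211 and 409 ± 115 CPM (SD, n = 4) differed by far less than their spread (log2 fold change 0.14, standard error 0.32, limma with the block, adjusted p = 0.697). Its direction turned without control 3 (-0.14), without hLcn-2 sample 4 (-0.039) and, with the block, without pair 3 (-0.030). ACLY had 565, 412, 263 and 555 CPM in controls and 608, 472, 337 and 555 CPM with hLcn-2. It was higher in pairs 1 to 3 and equal in pair 4 to within 0.001 on the log2 scale, and its log2 difference was 0.16 (standard error 0.25, limma with the block, adjusted p = 0.423) that was -0.071 without control 3. The last exon of ACLY overlaps an antisense gene (ENSG00000274630), and the sources used here do not state whether reads were counted by strand. ACACA was between 69.8 and 133 CPM in controls and between 68.6 and 111 CPM with hLcn-2, higher in 1 of 4 pairs (log2 fold change -0.050, limma with the block, adjusted p = 0.873). Without control 4 it was 0.14 and without hLcn-2 sample 3 it was 0.063.

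The order of the levels in controls was SCD, FADS1, ACLY, FASN, ELOVL5, FADS2, ELOVL6, ACACA, FADS3 and ELOVL1. The controls of neighbours in this order overlapped for FADS1 and ACLY, ACLY and FASN, FASN and ELOVL5, ELOVL6 and ACACA, and ACACA and FADS3. SCD stood apart from all others and held between 45.4% and 62.9% of the summed level of the 10 genes in controls and between 50.3% and 67.2% with hLcn-2. The range of both groups overlapped, but in each pair the share was higher with hLcn-2.

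The 10 genes did not vary as 1 block between samples. In control 3, 6 of them had the lowest level of the 4 controls, and in hLcn-2 sample 3, 7 of them had the lowest of the 4 stimulated samples, whereas SCD was the second highest in the first and the highest in the second. Over the 8 samples, which share their numbers in pairs, Pearson's r of the log2 levels was 0.96 for ELOVL5 with ACLY and 0.92 for FASN with ACACA, and 0.85 for FADS2 with SCD. SCD had an r of 0.27 with FASN and of -0.50 with ELOVL1. These values are descriptions. Of 9005 genes with a mean of at least 10 CPM, those most like SCD over the 8 samples were TMEM135 (r = 0.95), EI24 (0.95), SLCO4C1 (0.95), RABL2B (0.93) and ALDH9A1 (0.93), with FADS2 at rank 63. Those most like FADS2 were JAG1 (0.94), STOM (0.92), GNAQ (0.91), UGGT1 (0.91) and SRSF8 (0.91), with SCD at rank 21.

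Ratios of 2 genes within a sample do not depend on the scaling of libraries. FADS2 over FADS1 was 0.322, 0.300, 0.385 and 0.277 in controls 1 to 4 and 0.351, 0.390, 0.434 and 0.337 with hLcn-2. It was higher in each pair, by 0.24 on the log2 scale on average (standard error over pairs 0.057), but the groups overlapped. The exact permutation test, which does not use the pairs, did not pass (two-sided p = 0.114, adjusted over 5 ratios 0.571). SCD over FASN was 5.62, 5.76, 13.8 and 4.39 in controls and 9.05, 6.75, 14.0 and 6.30 with hLcn-2, also higher in each pair, with a mean log2 difference of 0.36 (standard error over pairs 0.148, exact permutation p = 0.371, adjusted 0.667). SCD over FADS2 differed by 0.011 on the log2 scale, with pairs between -0.26 and 0.31 (exact permutation p = 0.943). ELOVL6 over ELOVL5 differed by -0.063 (exact permutation p = 0.800) and ACACA over FASN by -0.19, lower in each pair (differences between -0.66 and -0.0003), with the exact permutation p at 0.400. With 4 pairs the sign of the differences cannot give an exact p-value under 0.125.

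**Figure D3:**
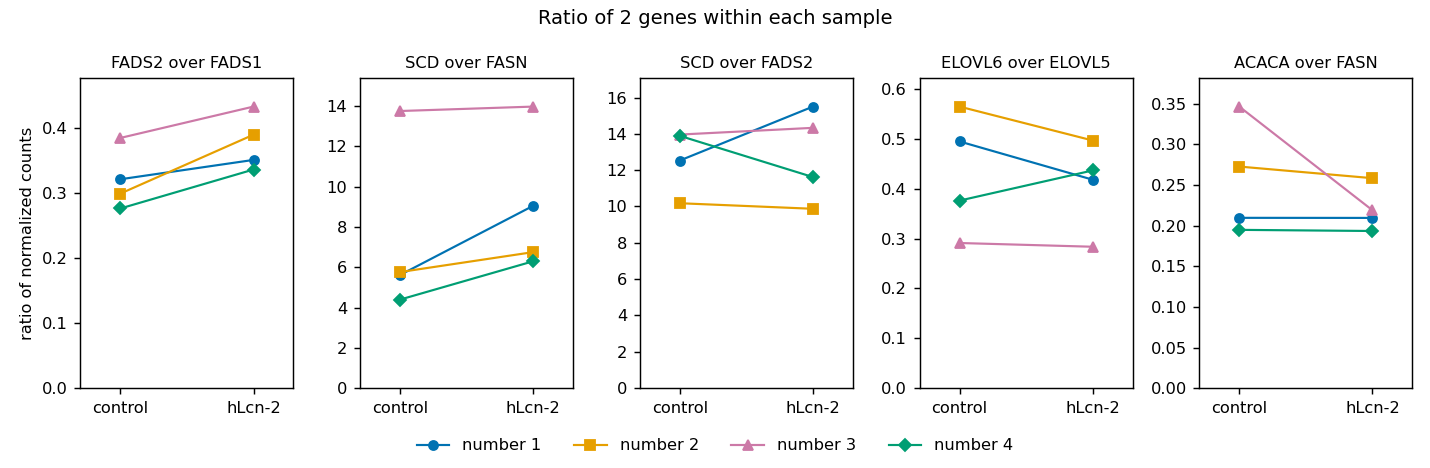
Ratio of the normalized counts of 2 genes within each of the 8 samples (linear axes from 0), with lines joining samples of the same number. FADS2 over FADS1 and SCD over FASN are higher with hLcn-2 along all 4 lines, and control 3 is at 13.8 for SCD over FASN where the other controls are between 4.39 and 5.76.

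The other genes of the pathway were counted in 4 lists with 50 genes tested. In limma with the block 0 of the 50 passed the threshold in either direction, and in edgeR with the block 2 did, CYB5B and INSIG1, both higher, where 1.12% of all genes were called as higher. Over all 4 lists 7 of the 50 genes were higher and 5 lower in each pair, near the 9.93% and 10.9% of all genes tested. The median log2 fold change was 0.037 for 13 genes of precursor supply and chain synthesis, -0.038 for 10 of the elongation cycle and -0.044 for 9 other desaturases and electron donors, beside 0.15 for the 10 genes and 0.00 for all genes tested. In the list of other desaturases and electron donors, CYB5B, the cytochrome b5 of the outer mitochondrial membrane, averaged 88.0 ± 17.8 and 113 ± 22.2 CPM (SD, n = 4). Its log2 fold change was 0.36 (limma with the block, adjusted p = 0.0916, edgeR with the block, adjusted p = 0.0375). CYB5A, the microsomal form that passes electrons to the desaturases, averaged 35.5 and 26.9 CPM and was lower in 3 of 4 pairs (limma with the block, adjusted p = 0.350). ACSS2, which makes acetyl-CoA from acetate, averaged 30.8 and 38.0 CPM and was higher in each pair (limma with the block, adjusted p = 0.384). ACACB, the carboxylase of the mitochondrial surface, averaged 16.9 and 15.0 CPM and was lower in each pair (limma with the block, adjusted p = 0.640), but was 0.041 on the log2 scale without hLcn-2 sample 2. The elongation cycle genes HSD17B12 (127.9 and 146 CPM) and HACD3 (298 and 271 CPM) had log2 fold changes of 0.17 and -0.13 and did not pass.

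Of 18 transcriptional regulators of lipid synthesis, 4 were higher and 1 was lower in each pair, with a median log2 fold change of 0.14. INSIG1, which retains the SREBP escort protein in the endoplasmic reticulum and is itself an SREBP target, had 1066, 931, 612 and 1152 CPM in controls 1 to 4 and 1249, 1315, 1017 and 1476 CPM with hLcn-2. It was higher in each pair, although control 4 exceeded hLcn-2 sample 3. Its log2 fold change was 0.45 (standard error 0.20), just short of the threshold in limma with the block (adjusted p = 0.0506) and past it in edgeR with the block (adjusted p = 0.00749). SREBF1, the gene of the SREBP that drives fatty acid synthesis, averaged 59.1 ± 8.26 and 68.3 ± 5.63 CPM (SD, n = 4) and was higher in each pair (log2 fold change 0.21, limma with the block, adjusted p = 0.376). SREBF2, the gene of the SREBP of cholesterol synthesis, averaged 46.3 and 48.2 CPM, and SCAP, the escort protein, 23.7 and 23.5 CPM, both within the spread of the controls. MLXIPL, which encodes the carbohydrate-responsive factor ChREBP, averaged 2.07 and 2.48 CPM from 4 to 17 reads per sample. Its level ran from 0.300 CPM in control 2 to 5.92 CPM in hLcn-2 sample 3. This spread was far wider than the difference of the means, so that no difference can be read from it. RXRA, a partner of lipid-sensing nuclear receptors, averaged 55.4 and 46.5 CPM and was lower in each pair (limma with the block, adjusted p = 0.314).

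The cholesterol pathway, which shares its regulators with fatty acid synthesis, had a higher mean log2 level with hLcn-2 in 18 of 20 genes tested (50.2% of all genes), with a median log2 fold change of 0.23. Of these 20 genes, 10 were higher and 1 was lower in each pair, against 9.93% and 10.9% of all genes. None passed the threshold in limma with the block, and 2, both higher, passed it in edgeR with the block, MVK among them, against 1.12% of all genes. MVK, mevalonate kinase, averaged 55.8 and 74.0 CPM with a log2 fold change of 0.42 (limma with the block, adjusted p = 0.0774, edgeR with the block, adjusted p = 0.0195). The median of this list was between 0.19 and 0.24 when a whole pair was left out, and 0.040 without control 3 or 0.38 without hLcn-2 sample 3, which each leave a pair incomplete.

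In the lists of fatty acid use the medians lay near 0. For 17 genes of fatty acid activation and glycerolipid synthesis the median log2 fold change was 0.018, and 0 of them passed in limma or edgeR with the block. ACSL3, which activates fatty acids and is known for favouring monounsaturated ones, had 321, 381, 354 and 451 CPM in controls 1 to 4 and 460, 485, 455 and 465 CPM with hLcn-2. ACSL3 is named because its change was among the 2 largest of its list with a mean of at least 10 CPM. Its groups did not overlap, as held with hLcn-2 higher for 0.891% of all genes tested (exact permutation test, unadjusted p = 0.0286). Its log2 fold change of 0.32 did not pass the threshold in limma with the block (adjusted p = 0.139) or in edgeR with the block (adjusted p = 0.0521). Without pair 4 it did pass in limma with the block (adjusted p = 0.0405). AGPAT2, an acyltransferase of phosphatidic acid synthesis, averaged 27.5 and 33.5 CPM and was higher in 3 of 4 pairs, with -0.025 on the log2 scale without hLcn-2 sample 4. For 18 genes of mitochondrial fatty acid oxidation the median was 0.013, with 1 gene higher and 2 lower in each pair. HADH and HADHB, enzymes of this oxidation, averaged 22.3 and 111 CPM in controls and 27.7 and 129 CPM with hLcn-2, and neither passed (limma with the block, adjusted p = 0.335 and 0.476).

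**Figure D4:**
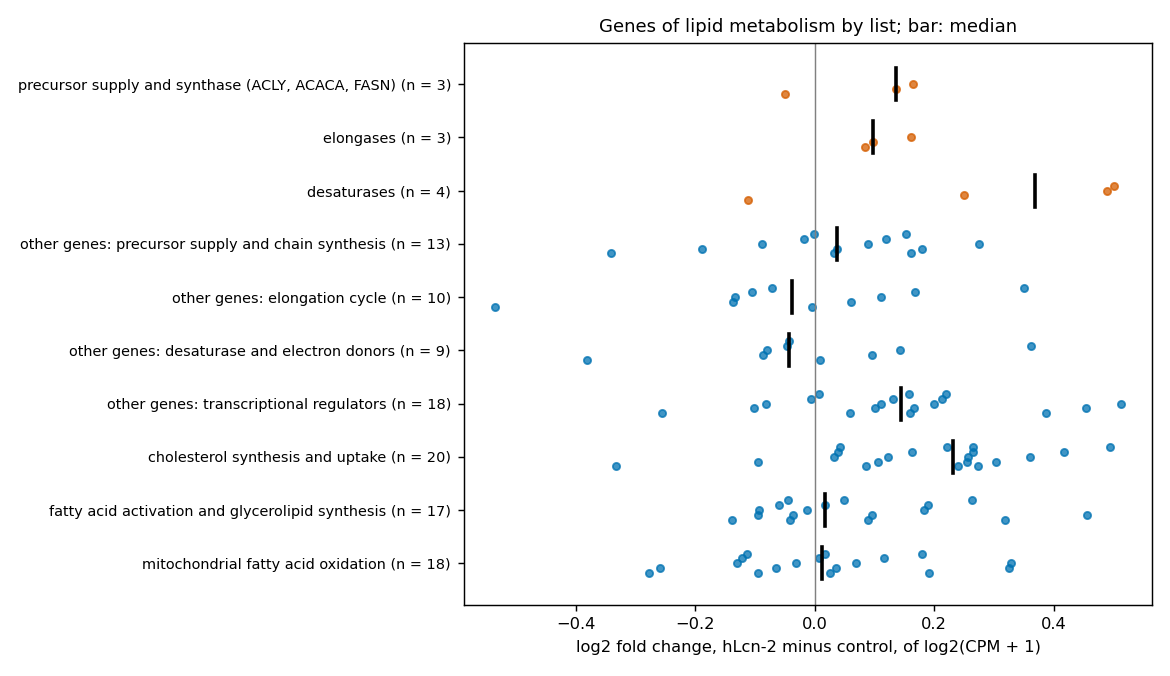
Log2 fold changes (hLcn-2 minus control, log2 of CPM + 1) of each gene tested in the 3 groups of the 10 genes (orange) and in 7 further lists of lipid metabolism (blue), with a black bar at the median of each list and n genes beside its name. The medians of the desaturases and of cholesterol synthesis lie highest, at 0.37 and 0.23, and those of the other lists of fatty acid use lie near 0.

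The 4 pairs contributed unequally. The median log2 difference of the 10 genes was 0.035, 0.20, 0.27 and 0.14 in pairs 1 to 4, where that of all genes tested was -0.016, 0.0076, -0.045 and 0.038. In pair 2 all 10 genes were higher with hLcn-2, in pair 1 there were 5, in pair 3 there were 7 and in pair 4 there were 6. Of all genes tested, 47.9%, 51.3%, 44.7% and 53.0% were higher in pairs 1 to 4, so that pairs 1 and 4 were near these shares. The median over the 10 genes was between 0.13 and 0.21 when a whole pair was left out. With single samples left out, which leaves a pair incomplete, it was -0.017 without control 3, 0.26 without hLcn-2 sample 3 and 0.27 without control 4.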

How the data were processed

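RNA of CAKI1 cells was sequenced as single-end QuantSeq 3′ libraries with unique molecular identifiers. The authors used STAR (GRCh38) for alignment, merged reads by identifier, counted per gene with HTSeq and deposited the values as a scaled signal, normalized counts on the scale of CPM. Versions of these tools are not given in the sources used here. Dividing by the worth of 1 read gave whole reads for 100% of 134256 values (tolerance 0.01), and on these reads edgeR 4.0.16 and DESeq2 1.42.0 were run. A single decimal comma was read as a point. For 2645 of 2810 genes without a symbol, GENCODE 44 gave the name.

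The main test was limma 3.58.1 (R 4.3.3), two-sided and with an intensity trend, on log2(normalized count + 1), a scale that understates changes of genes with few reads. Genes needed 1 CPM or more in 2 or more samples, and the Benjamini-Hochberg adjustment covered all of them. This choice had been made for normalized values and was kept after reads were recovered. Groups and replicate numbers came from the labels. Deviations from the group means correlated between same-numbered samples (r across genes 0.477, 0.590, 0.610 and 0.312), so that the number was also fitted as a block. Intervals are 95% intervals of the moderated statistic, and floors of 3 reads cover counting error only. Exact permutation tests used the 70 regroupings of 4 against 4 and did not take the pairs into account. All models were tested on simulated reads into which effects shared by same-numbered samples had been built. That test cannot show whether the block suits the real samples.

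The 10 genes, the lists and the tests were chosen with earlier results of these data known. Named are the 10 genes, genes of the lists called by limma, the 2 of largest log2 fold change per list with a mean of at least 10 CPM, 6 genes fixed by name (1 gene is not reported here), and the 5 genes most like SCD and FADS2. Promoter windows came from RefSeq and exons from GENCODE 44, and no window was used for FASN. The alternatives were other pseudocounts, filters and scalings, no trend, the block, edgeR, DESeq2 and leaving out samples or pairs.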

Additional observations from a re-analysis of the deposited data

Results flagged for a closer look

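Among 30 groups of 4 samples examined, 10 genes and 5 ratios in 2 groups each, 2 had a sample far from the other 3, where chance gives about 1.5. ELOVL6 was at 73.1 CPM in hLcn-2 sample 3 and between 151 and 153 CPM in the other hLcn-2 samples, so that the gap to the nearest was 0.968 of the range. Control 3 was also the lowest control, at 66.3 CPM. The ratio of SCD over FASN was 13.8 in control 3 and between 4.39 and 5.76 in the other controls, a gap of 0.854 of the range, and it was 14.0 in hLcn-2 sample 3.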

How the results depend on the processing

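Without the replicate block, limma, edgeR and DESeq2 called 0 genes (355, 324 and 284 at an unadjusted p-value under 0.05), and so did every alternative without it. With the replicate block, limma called 44 genes, edgeR 233 and DESeq2 181, among them the same 2 of the 10 genes, SCD and FADS2. Combinations of the block with another choice were added after seeing the data. Of these, CPM of the column totals called 36 genes, TMM scaling 67 and a mean of at least 10 CPM 85, each with 2 of the 10 genes, while a pseudocount of 0.1 called 8 genes and no intensity trend 0 (1567 at an unadjusted p-value under 0.05), both with 0 of the 10. Leaving out pairs 1 to 4 with the block called 14, 3, 0 and 58 genes, and 1, 0, 0 and 2 of the 10. The cause was not tested.

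SCD, FADS2, FADS1 and ELOVL5 kept their direction in all 30 alternatives. When single samples were left out, the log2 fold change ranged from -0.071 to 0.34 for ACLY, -0.17 to 0.14 for ACACA, -0.14 to 0.44 for FASN, -0.024 to 0.20 for ELOVL1, -0.18 to 0.36 for ELOVL6 and -0.21 to 0.0029 for FADS3, and the median of the 10 genes from -0.017 to 0.27. It ranged from -0.39 to 0.041 for ACACB, -0.025 to 0.50 for AGPAT2, -0.0045 to 0.12 for SREBF2, -0.084 to 0.070 for SCAP and -0.24 to 0.45 for MLXIPL, and the log2 ratio from -0.090 to 0.13 for SCD over FADS2 and -0.24 to 0.10 for ELOVL6 over ELOVL5. With the block and a pair left out, the direction turned for ACACA (0.020 without pair 4), FASN (-0.030 without pair 3), ELOVL1 (-0.12 without pair 4), SREBF2 (-0.0072 without pair 2), MLXIPL (-0.073 without pair 3) and SCAP (0.0084, 0.019 and 0.0060 without pairs 1, 3 and 4). SCAP was also above 0 with TMM scaling (0.0038, with and without the block), edgeR with the block (0.017) and DESeq2 with the block (0.0038).

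The depth of 1501563 reads in control 4 and 2088266 in hLcn-2 sample 3 limits genes with few reads such as MLXIPL and ELOVL1.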
